A study of Mus musculus with 10 samples.

Results

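Synaptic vesicle and SNARE genes were described by their RNA levels in mouse spinal cord, over *SOD1 G93A* and wild type (WT) animals together. They were taken by symbol from the deposited table: synaptotagmins (*Syt*), syntaxins (*Stx*), VAMPs, SNAP-25 relatives and *Snap91*, syntaxin-binding proteins (*Stxbp*), *Sv2b* and *Sv2c*, synapsins (*Syn1*, *Syn2* and *Syn3*), *Syp*, complexins (*Cplx*), RIMs (*Rims*), *Unc13b* and *Unc13c*. A base mean of at least 10 was also required, which gave 63 members among the 25232 genes of the table. The symbols matched 68 genes, and the 5 below the minimum were *Stx11* (base mean 9.03), *Cplx3* (3.22), *Syt8* (0.842), *Cplx4* (0.414) and *Stx19* (0.329). Just inside the minimum were *Syt15* (base mean 37.0), *Stxbp3-ps* (44.1) and *Vamp5* (82.0).

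The study sequenced RNA from 10 female mice of 90 days on a C57BL/6 background (C57BL/6J in the methods), 5 *SOD1 G93A* and 5 WT, and its methods give the lumbar cord as the tissue and the WT mice as littermates. The *SOD1 G93A* strain carries many copies of a mutant human *SOD1* transgene under the human promoter and is a model of familial amyotrophic lateral sclerosis, and the WT mice lack the transgene. The values described here are the authors' base means, which are averages of normalized read counts over all 10 libraries, so that each value mixes the genotypes. The table's other columns hold the outcome of the authors' own comparison and were not used, values of single libraries were not analysed here, and therefore neither a difference between *SOD1 G93A* and WT mice nor a spread between mice is given for any gene.

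Transmitter release needs vesicles to fuse with the presynaptic membrane. Fusion is driven by SNARE proteins: a VAMP on the vesicle (an R-SNARE) winds together with a syntaxin (Qa) and a SNAP-25 type protein (Qbc) on the target membrane. Munc18 proteins, encoded by *Stxbp* genes, hold the syntaxin, Munc13 and RIM proteins prime vesicles at the active zone, complexins clamp and promote the assembled SNAREs, and synaptotagmins sense the calcium that triggers fusion. Related SNAREs serve the traffic between endosomes, Golgi and endoplasmic reticulum in every cell. In whole spinal cord the amount of RNA depends on both the number of neurons and the RNA in each of them, and these cannot be told apart.

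Some of the promoters are shown because they belong to the member with the highest level per kilobase of exon, *Cplx1*, to the pair of fast calcium sensors whose levels differ, *Syt1* and *Syt2*, and to *Syn1*, a textbook target of the repressor REST. Sequences are from RefSeq (GRCm38.p6), 5′ to 3′ on the strand of the gene, and run from 250 bases before to 50 bases after the most upstream annotated start. In the first 3, capitals mark CG dinucleotides. In *Syn1*, capitals mark TTCAGCACC, the start of the RE1 element bound by REST, and TGACGTCA, the cyclic AMP response element (CRE).

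*Cplx1*, chr5:108549978-108550277, minus strand: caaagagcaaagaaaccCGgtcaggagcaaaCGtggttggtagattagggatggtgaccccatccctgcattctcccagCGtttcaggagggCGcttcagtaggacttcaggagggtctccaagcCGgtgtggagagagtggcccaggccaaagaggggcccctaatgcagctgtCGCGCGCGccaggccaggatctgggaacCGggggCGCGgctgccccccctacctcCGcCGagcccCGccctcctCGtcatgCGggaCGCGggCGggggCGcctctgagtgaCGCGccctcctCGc

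*Syt1*, chr10:109010926-109011225, minus strand: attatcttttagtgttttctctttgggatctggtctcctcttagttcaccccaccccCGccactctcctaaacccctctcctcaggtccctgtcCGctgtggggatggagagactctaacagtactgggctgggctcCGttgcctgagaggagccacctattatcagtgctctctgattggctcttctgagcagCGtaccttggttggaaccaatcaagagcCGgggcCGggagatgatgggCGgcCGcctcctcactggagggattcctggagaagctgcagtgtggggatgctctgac

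*Syt2*, chr1:134646362-134646661, plus strand: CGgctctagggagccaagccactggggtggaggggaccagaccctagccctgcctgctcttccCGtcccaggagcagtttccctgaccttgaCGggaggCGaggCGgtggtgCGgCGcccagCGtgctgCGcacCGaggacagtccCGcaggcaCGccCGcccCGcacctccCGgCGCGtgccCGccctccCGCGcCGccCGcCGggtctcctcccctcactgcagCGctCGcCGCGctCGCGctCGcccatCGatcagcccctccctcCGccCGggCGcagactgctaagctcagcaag

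*Syn1*, chrX:20920869-20921168, minus strand: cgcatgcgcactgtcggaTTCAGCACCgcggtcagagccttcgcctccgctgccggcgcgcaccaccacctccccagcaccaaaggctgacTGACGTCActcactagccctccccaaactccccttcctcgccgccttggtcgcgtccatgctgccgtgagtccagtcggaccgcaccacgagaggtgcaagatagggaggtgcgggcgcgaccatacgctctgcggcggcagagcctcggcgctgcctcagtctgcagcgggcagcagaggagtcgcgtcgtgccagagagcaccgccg

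The *Syt2* promoter held 34 CG dinucleotides and a G and C content of 74.3%, and the *Syt1* promoter held 8 at 56.7%. The *Cplx1* promoter, with 24 at 67%, stood between them. A RefSeq promoter was matched for 47 of the 63 members, and these had a median G and C content of 64.3%, against 60.7% over the 12284 promoters of all genes at or above the same minimum. The ratio of observed to expected CG dinucleotides had a median of 0.737 in the members and 0.736 in all. Searched on either strand, TTCAGCACC occurred in 1 of the 47 (*Syn1*, 2.13%) and in 0.44% of all these promoters. Members without a matched promoter, among them *Snap25*, *Vamp2* and *Syt7*, were not searched. TGACGTCA was found in *Syn1* and *Stxbp3* (4.26%, against 3.07% of all), and the TATA box letters TATAAA in *Stx3* and *Sv2b* (4.26%, against 7.25% of all). These are matches of letters in a window and say nothing of binding.

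The labelled tissue was checked against marker genes. All 5 Hox genes looked at (*Hoxa10*, *Hoxc10*, *Hoxd10*, *Hoxc9* and *Hoxd9*) reached the minimum, with base means of 152 to 489. So did all 7 markers of spinal cord neurons, from *Mnx1* (37.3) to *Slc17a6* (5255). Hox genes of other cord levels were not looked at, so lumbar cord was not told apart from other cord. Markers of oligodendrocytes had base means from 5348 (*Mog*) to 319615 (*Mbp*), and those of neurons in general from 3498 (*Rbfox3*) to 59050 (*Snap25*, itself a member). Those of astrocytes reached 56290 (*Gfap*), those of microglia 3041 (*Csf1r*) and those of endothelium 2253 (*Flt1*). Of the forebrain markers *Tbr1* stood at 3.60, while *Neurod6* (78.9) passed the minimum. The 3 skeletal muscle genes had base means of 108 to 251, overlapping those of the Hox genes, the sensory ganglion genes had 7.93 to 86.9, and of the Schwann cell genes *Prx* had 484 and *Pmp2* 21.5. The haemoglobin genes *Hba-a1* and *Hbb-bs* were listed at 0, but only uniquely mapped reads were counted, and the presence of blood was not tested. Of the summed base means of the table, the members took 1.54%. The part of neuron number in the levels below was not tested.

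Base means grow with the length of a gene, so levels of different genes are given per kilobase of exon, that is, the base mean divided by the summed length of all annotated exons (GENCODE M21). The members' exons covered between 758 and 22746 bases. Members ranged from 7.16 per kilobase for *Syt15* to 12969 for *Cplx1*, a 1811-fold span. Their median level was 305 per kilobase, and the median over the 15627 genes that reached the minimum and had a known length was 117. The median member stood at percentile 76.1 of these genes, 19 members were in the top 10% and 17 were below the middle of the ranking. Counting alone would give a library of average depth an error from 0.412% of the value (*Snap25*) to 16.4% (*Syt15*). The counting error of a mean over 10 libraries would be smaller, so genes within the first may lie outside the second. An error that includes the spread between mice cannot be stated. Of the 62 neighbours in the order of levels, 33 lay closer to each other than this counting error at 95%. *Stx4a* and *Stx16*, both at 700, were among them, and so were *Syt7* (635), *Syt1* (630) and *Unc13c* (624).

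**Figure D1:**
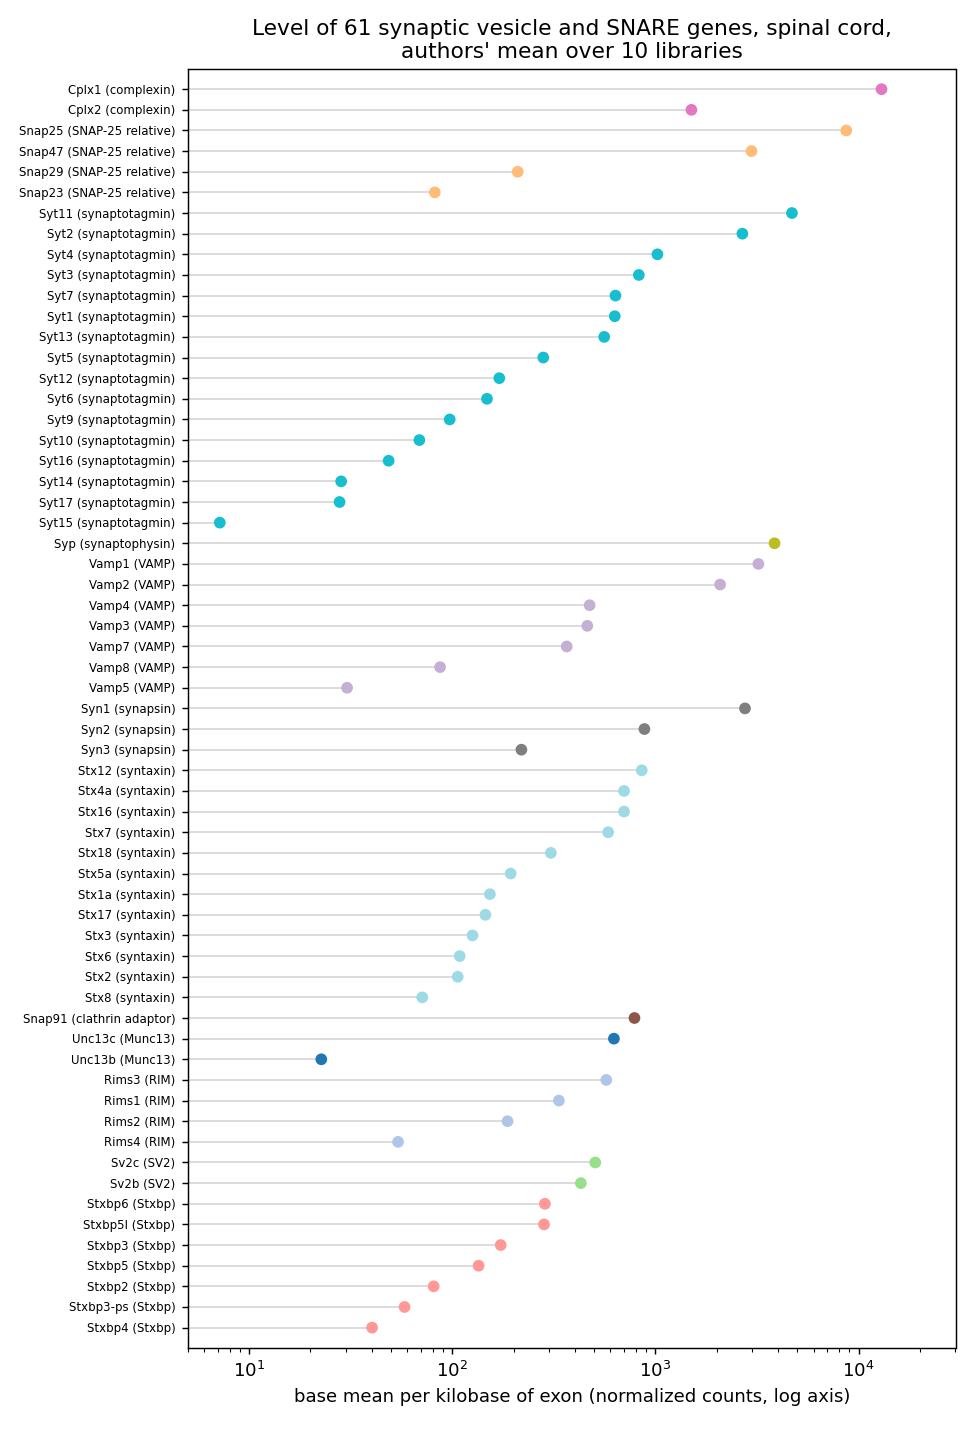
Base mean per kilobase of exon for 61 of the 63 members on a log axis, 1 point a gene, grouped and coloured by family and with families ordered by the highest member drawn. *Cplx1* (12969) and *Snap25* (8695) stand farthest to the right and *Syt15* (7.16) farthest to the left.

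The 10 most abundant members held 72.0% of the summed level of all 63, and *Cplx1*, *Snap25*, *Syt11*, *Syp*, *Vamp1*, *Snap47*, *Syn1*, *Syt2* and *Vamp2* were among them. Each of these but *Syt11* and *Snap47* acts in the release of transmitter from nerve terminals or marks their vesicles. *Snap47* encodes a SNAP-25 relative of intracellular membranes, and the *Syt11* protein has lost a calcium-coordinating residue of its first C2 domain. *Cplx1* led per kilobase although its base mean of 28389 was behind those of *Snap25* (59050) and *Vamp1* (32648), since its exons cover 2189 bases and those of *Snap25* 6791.

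Among SNAREs proper, 24 genes were members. Qbc-SNAREs made up 49.5% of the summed level per kilobase of these 24, R-SNAREs 27.8%, Qa-SNAREs 21.9% and the Qc-SNAREs *Stx6* and *Stx8* 0.745%. SNAREs with other symbols were not members, among them *Vti1b* (1325 per kilobase), *Gosr2* (658), *Ykt6* (571) and *Use1* (525). The shares are therefore not those of all SNAREs in the tissue. The median was 1589 per kilobase for the 4 Qbc-SNAREs, 462 for the 7 R-SNAREs and 305 for the 11 Qa-SNAREs.

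*Snap25* (ENSMUSG00000027273.13; chromosome 2 of GRCm38, 136713453 to 136782428) had 8695 normalized counts per kilobase. Its relative *Snap23* had 81.9, so that *Snap25* was 106-fold higher. *Snap47* followed with 2969, and *Snap29*, which takes part in endosomal and autophagosomal fusion, had 210. Exons of *Jmjd4* on the opposite strand cover 11.6% of the exon bases of *Snap47*.

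*Vamp1* (chromosome 6, 125215551 to 125245964) and *Vamp2* (chromosome 11, 69088490 to 69092384) encode the vesicle SNAREs synaptobrevin 1 and 2, of which *Vamp1* is known as the form of spinal cord and brain stem. *Vamp1* stood at 3211 per kilobase and *Vamp2* at 2081, a 1.54-fold difference. Its size rested on the length chosen: the base means of 32648 and 7925 give a log2 ratio of 2.04, and the level per kilobase of exon a ratio of 0.63, because *Vamp1* has 10167 exon bases and *Vamp2* 3809. In the coding sequence the 2 genes were identical at 70.1% of aligned bases. *Vamp4* (474) and *Vamp3* (462), of Golgi and recycling endosomes, differed by less than the counting error of 1 library. *Vamp7*, of late endosomes and lysosomes, had 366, *Vamp8* 87.0 and *Vamp5* 30.3.

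*Stx1a*, a syntaxin of the presynaptic membrane, had 153 normalized counts per kilobase. Higher levels were listed for *Stx12* of endosomes (856), *Stx4a* of the plasma membrane of many cell types (700), *Stx16* of the Golgi (700) and *Stx7* of late endosomes (585). *Stx18* of the endoplasmic reticulum had 305, *Stx5a* of the Golgi 194 and *Stx17*, which acts on autophagosomes, 145. *Stx3* (126) and *Stx2* (106), of the plasma membrane, and the Qc-SNAREs *Stx6* (109) and *Stx8* (71.1) formed the end of the family. Exons of the neuronal gene *Nsg1* on the opposite strand, with a base mean of 6681, cover 12.5% of the exon bases of *Stx18*.

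Of the Munc18 genes, *Stxbp3* had 173 per kilobase and *Stxbp2* 80.9. The tomosyns, which compete with VAMP for the syntaxin, stood at 283 (*Stxbp5l*) and 135 (*Stxbp5*). The size of this gap rested on the length chosen: their base means were 2408 and 2224. By coding length the log2 ratio of *Stxbp5* over *Stxbp5l* was −0.074, within the counting error of 1 library. *Stxbp6* had 286 and *Stxbp4* 40.2. *Stxbp3-ps* is annotated as a processed pseudogene, so that 62 members code for protein. Of the 100-base windows of *Stxbp3-ps*, 53.1% also occur in *Stxbp3*, and its base mean of 44.1 and that of *Stxbp3* (924) are uncertain, since 15.1% of the windows of *Stxbp3* are shared in turn and reads were counted where they mapped uniquely.

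Complexins held 21.4% of the members' summed level per kilobase of exon, above the 17.7% of the SNAP-25 relatives. With the longest transcript (16.6% against 19.0%), the coding length (21.0% against 24.4%) or no length (10.5% against 20.0%) the SNAP-25 relatives were above the complexins. *Cplx1* stood at 12969 per kilobase and *Cplx2* at 1503, 8.63-fold lower, and *Cplx3* and *Cplx4*, known from retina, were below the minimum. The coding sequences of *Cplx1* and *Cplx2* have the same length of 402 bases and were identical at 79.6% of them, the highest identity among the pairs compared. By coding length the log2 ratio was 1.94, against 3.11 per kilobase of exon. RefSeq starts *Cplx2* upstream of the GENCODE gene, so that its exon length differs between annotations.

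Summed over relatives, the parts of the release machinery had unequal RNA levels. *Cplx1* and *Cplx2* together reached 14472 per kilobase, *Snap25* 8695, the synaptobrevins *Vamp1* and *Vamp2* 5292, the synapsins 3859, *Syp* 3856 and the fast calcium sensors *Syt1*, *Syt2* and *Syt9* 3406. *Rims1* and *Rims2* reached 521, and each of the other sums was above theirs under every choice of length. The order of the other sums depended on the length. By coding length *Snap25* (95551) was above the complexins (89045). Without a length *Snap25* (59050) and the synaptobrevins (40573) were both above the complexins (35796). *Syp* was above the synapsins under every choice but the union of exons. RNA levels give no ratio of proteins.

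**Figure D2:**
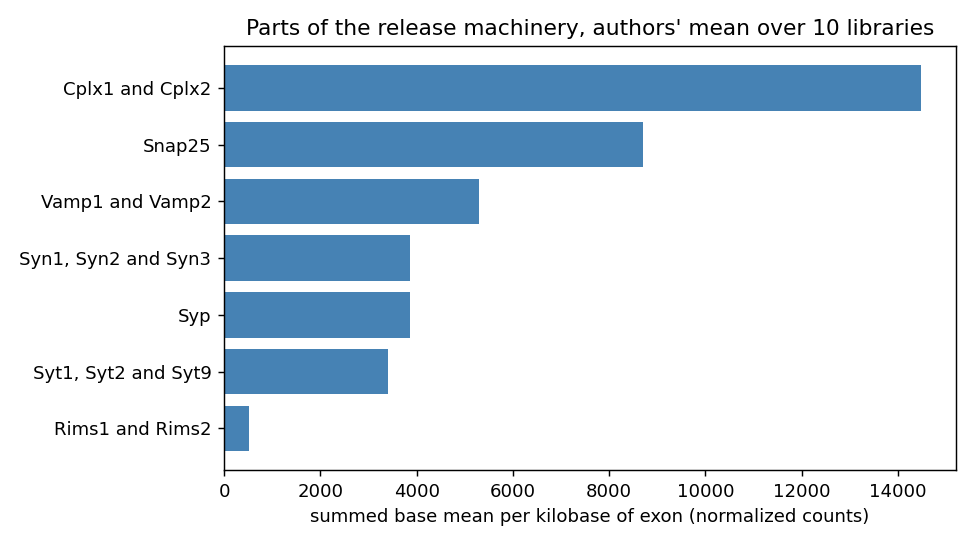
Summed base mean per kilobase of exon (bars, linear axis from 0) of 7 parts of the release machinery, each the authors' mean over all libraries. The complexins reach 14472 and *Snap25* 8695, while *Rims1* with *Rims2* reach 521.

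The synaptotagmins were the largest family, with 16 members. The fast calcium sensors differed from each other: *Syt2* had 2679 per kilobase, *Syt1* 630 and *Syt9* 97.0. *Syt2*, known as the form of caudal nervous system and neuromuscular junctions, was thus 4.25-fold above *Syt1*, and the log2 ratio of *Syt1* over *Syt2* lay between −2.09 and −1.45 under the 4 choices of length. Their coding sequences were identical at 76.0% of aligned bases. *Syt7*, a slow sensor of high affinity, stood at 635. *Syt3*, also calcium-binding, had 828, but by base mean *Syt7* (4756) was above *Syt3* (2581), so that their order depends on the length.

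*Syt11* was the most abundant synaptotagmin (4697 per kilobase) and held 39.4% of the family's level. *Syt4*, its closest relative, had 1022, which was 4.60-fold lower, and 14.5% of the exon bases of *Syt4* lie under an antisense RNA gene. *Syt13*, which does not bind calcium, reached 559. The other members were *Syt5* (280), *Syt12* (170), *Syt6* (148), *Syt10* (68.8), *Syt16* (48.5), *Syt14* (28.3), *Syt17* (27.8) and *Syt15* (7.16). Exons of another gene on the opposite strand covered 17.2% of *Syt12*.

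Among vesicle proteins, *Syp*, the gene of synaptophysin on the X chromosome (7638471 to 7653256), had 3856 per kilobase, and an antisense gene covers 16.8% of its exon bases. *Syn1*, whose protein ties vesicles into clusters, had 2758, *Syn2* 882 and *Syn3* 219. *Syn1* was 3.13-fold above *Syn2* per kilobase of exon, a log2 ratio of 1.65, which was 0.28 by coding length. *Timp3*, a gene of base mean 4140, lies inside *Syn3* on the opposite strand and shares 1733 bases, 14.1% of the exon bases of *Syn3*. The SV2 genes taken, *Sv2c* (505) and *Sv2b* (429), were close to each other. The symbols used take no other SV2 gene, so the SV2 balance of the tissue is not given. *Snap91*, which despite its symbol is no SNARE but a clathrin adaptor of vesicle recycling, had 788.

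Among the members of the active zone the order per kilobase of exon was *Unc13c* (624), *Rims3* (573), *Rims1* (334), *Rims2* (187), *Rims4* (54.0) and *Unc13b* (22.6). Of the Munc13 genes the symbols used take only *Unc13b* and *Unc13c*, so this is not the order of all active zone genes. *Rims3* was above *Unc13c* with the longest transcript (702 against 624) and with the coding length (4956 against 828). *Rims1* and *Rims2* encode the long scaffolds and *Rims3* and *Rims4* short forms of RIM. *Unc13c* was 27.6-fold above *Unc13b*, whose annotated exons cover 22746 bases, the most of any member, and by base mean *Unc13c* (5490) was above *Unc13b* (515) as well. *Rims1* was 1.79-fold above *Rims2*, and the order turned with the longest transcript as length.

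**Figure D3:**
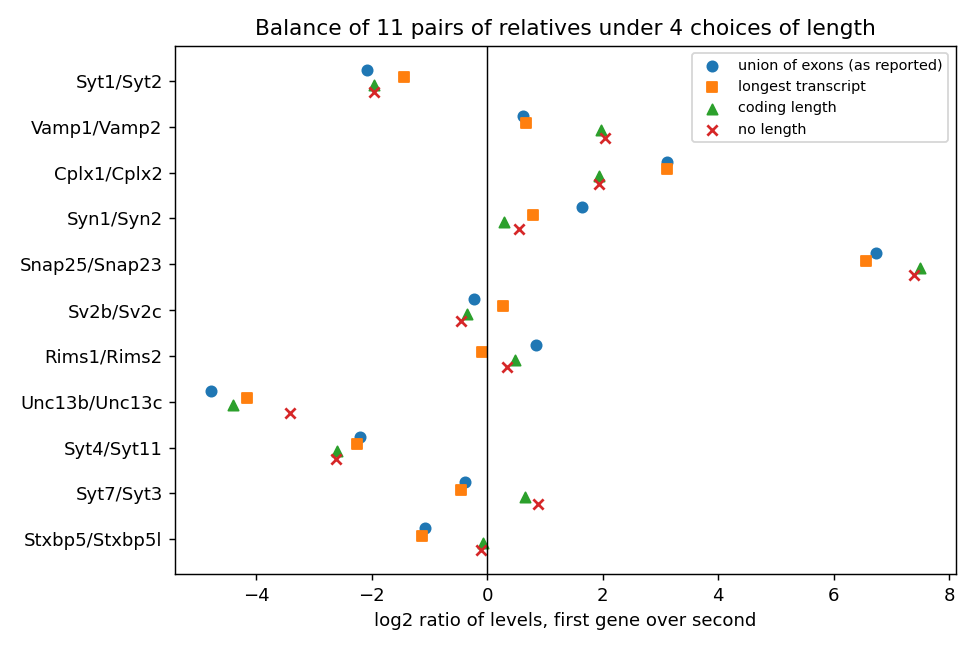
Log2 ratio of the levels of 11 pairs of related members, first gene over second, with the base mean divided by the union of exons, the longest transcript or the coding length, or not divided. Points of *Snap25* over *Snap23* lie between 6.55 and 7.49 and those of *Unc13b* over *Unc13c* between −4.79 and −3.42, while those of *Sv2b* with *Sv2c*, *Rims1* with *Rims2* and *Syt7* with *Syt3* fall on both sides of 0.

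Of the 11 pairs, 7 differed at least 2-fold per kilobase of exon, and 8 had the same order under all 4 choices of length. *Stxbp5* with *Stxbp5l* is counted in both, although its log2 ratio was −1.07 per kilobase of exon and −0.074 by coding length. The 3 exceptions were *Sv2b* with *Sv2c*, *Rims1* with *Rims2*, and *Syt7* with *Syt3*. The counting error of the log2 ratio was at most 0.08 in any pair, and no pair can be set against the spread between mice.

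Other genes of the presynaptic terminal and of general SNARE traffic gave a comparison list of 51, of which 50 reached the minimum. The median level of these 50 was 323 per kilobase, close to the 305 of the members. The highest were *Rph3a* (4748), which binds Rab3 on vesicles, *Rab3a* (4699) itself and *Dnm1* (4161), the dynamin of vesicle retrieval. *Nsf*, the ATPase that takes used SNARE complexes apart, had 2815, and its adaptors *Napb* 1399, *Napa* 1151 and *Napg* 434. The lowest of all 51 were *Sytl3* (2.28), *Sytl1* (3.30) and *Sytl4* (4.85), of the synaptotagmin-like proteins, and *Sytl1*, with a base mean of 8.30, was the gene below the minimum. Vesicular transporters of inhibitory terminals (*Slc32a1*, 1524), of glutamate terminals (*Slc17a6*, 973) and of cholinergic terminals (*Slc18a3*, 485) were above *Slc17a7* (85.4), the main glutamate transporter of the forebrain.

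**Figure D4:**
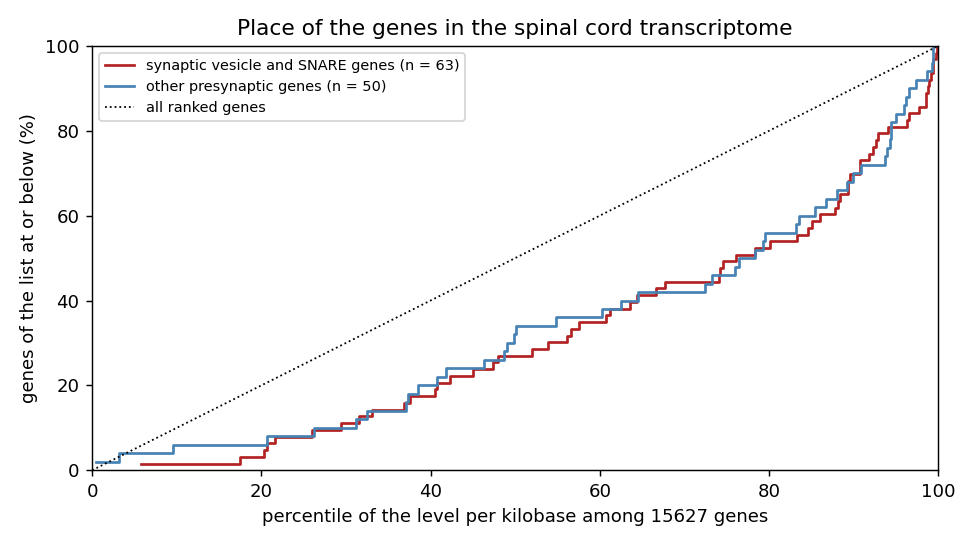
Cumulative share of the 63 members and of the 50 genes of the comparison list (vertical axis, %) by the percentile of their level per kilobase among 15627 genes (horizontal axis), with the dotted line for all ranked genes. The comparison list, drawn as other presynaptic genes, also holds genes of general SNARE traffic. The members lie below the dotted line over most of the range, as does the comparison list, and the members' median is at percentile 76.1.

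Reads shared with other genes limit some of these values. Exons of 16 members overlap an exon of another annotated gene, on the opposite strand in all but *Stx5a*, which holds a microRNA gene, and the strand setting of the read counting is not given in the sources used here. For 62 members the longest transcript was searched on either strand, and 49 had no 100-base window in common with a transcript of another gene. More than 10% of the windows were shared in 5 (*Stxbp3-ps*, *Syn3*, *Syt12*, *Stx18* and *Stxbp3*). *Syn3* and *Stx18* shared windows only with *Timp3* and *Nsg1*, which overlap them on the opposite strand. The genes that shared windows with *Syt12* also include one that overlaps it in this way.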

How the data were processed

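Stranded mRNA libraries were sequenced from 10 spinal cords, 5 of each genotype (*SOD1 G93A* and WT). The authors filtered reads with Fastp, aligned them to mm10 with HISAT2 2.1.0, counted uniquely mapped reads per gene with featureCounts 2.0.2 and ran DESeq2, by the methods and the submitters' processing notes. The deposited table holds 1 signal column that was used, the base mean, which the authors computed as the mean over all libraries of counts divided by size factors. Its other columns (log2 fold change, standard error, Wald statistic and p-values) hold the authors' own comparison of the genotypes and were not used. No test was therefore made, and the depth of single libraries is unknown.

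Levels were computed as the base mean per 1000 bases of exon, with the union of exons from GENCODE M21, which is on GRCm38, the build that mm10 denotes. All 63 members had a length, and 291 of the 15918 genes that reached the minimum of 10 were left out of the ranking for want of one. The authors' gene annotation is not given in the sources used here. The counting error is the Poisson error of a library of average depth, and covers counting only. Coding identity came from global alignment, and shared windows of 100 bases from GENCODE transcripts, with Python 3.11.15, numpy 2.4.6, pandas 2.3.3, Biopython 1.88 and matplotlib 3.10.9. Computations were tested on simulated data. Members, pairs and gene lists were chosen with earlier results of these data known. The rule for named genes took 13 pairs of relatives, the highest and lowest member of each family, the 10 highest members, the 3 nearest members on each side of the minimum (all 5 outside it are given), and the 3 highest and 3 lowest genes of the comparison list. The remaining members, *Nsf* and its adaptors, the vesicular transporters, the overlapping genes and the promoters printed were chosen after their values were seen. A few genes taken by this rule, with 2 of the pairs, are not reported here.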

Additional observations from a re-analysis of the deposited data

How the results depend on the processing

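The alternatives were the longest transcript, the coding length or no length in place of the union of exons, other minimum base means, and a ranking over all genes above 0. The share of the members' summed level in *Snap25* moved from 12.9% per kilobase of exon to 13.9% with the longest transcript, 22.6% with the coding length and 17.3% without a length. The order turned for *Sv2b* over *Sv2c* (log2 ratio 0.27, against −0.24) and for *Rims1* over *Rims2* (−0.082, against 0.84) with the longest transcript. For *Syt7* over *Syt3* it turned with the coding length (0.65) and without a length (0.88, against −0.38). The number of members lay between 60 and 64 with a minimum of 100, 50 or 5, the 10 most abundant members shared 8 to 10 genes between choices of length, and the median percentile lay between 76.1 and 82.3. Of 60 alternative values for the share of a family, 10 moved by over 1.5 times, all of them with the coding length or without a length. The largest move was that of the Munc13 members *Unc13b* and *Unc13c*, from 0.956% to 0.205% with the coding length. With the same length VAMPs went from 9.92% to 21.6%. Complexins had 10.5% without a length, against 21.4%. No paired analysis was possible because the value used is a mean over all libraries, and for the same reason no replicate could be left out.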
